A study of Rattus norvegicus with 3 samples.

Results

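The SOX transcription factors of the glial lineage were examined as 10 genes, namely Sox2, Sox4, Sox5, Sox6, Sox8, Sox9, Sox10, Sox11, Sox12 and Sox13. They were taken by symbol from a table of 17337 genes, and all 10 were found. RNA had been sequenced from 3 libraries of Schwann cell precursors, the early glia of peripheral nerve, cultured without treatment from dorsal root ganglia of wild-type rat embryos in a modified Sato medium based on DMEM. With 1 group of 3 libraries, levels can be described but no contrast between conditions can be made. The labels give neither the strain nor the embryonic age. Nor do they state that each library is a culture of its own, and p-values then reflect the spread of these libraries alone, which could be technical.

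SOX proteins bind DNA through a high-mobility-group box that bends the double helix, and they usually act together with partner factors. Members are sorted into subgroups by the similarity of that box. SOXB factors such as SOX2 keep neural and glial cells immature, SOXC factors (SOX4, SOX11 and SOX12) are activators of progenitors and young neurons, and SOXD factors (SOX5, SOX6 and SOX13) lack an activation domain of their own and modulate other SOX proteins. SOXE factors (SOX8, SOX9 and SOX10) govern neural crest and glia, and SOX10 is needed to form and keep peripheral glia.

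Total counts were 14139074 to 15309526 per library. Levels are given as TPM, which is counts divided by the listed gene length and scaled to the same total in each library, with the SD over 3 libraries. Each gene with a count was tested by limma against a level of 1 TPM on log2(TPM + 1), with Benjamini-Hochberg adjustment over 13345 genes. All 10 Schwann cell precursor markers analysed were above 1 TPM, where 78.4% of the genes tested were. Their median was 221 TPM and their summed level 3520 to 3578 TPM. But all 9 measured fibroblast markers were above 1 TPM too, and higher, with a median of 602 TPM and a summed level of 8744 to 8949 TPM. All 7 satellite glia markers were above 1 TPM as well, with a median of 67.3 TPM and a summed level of 725 to 745 TPM. The part of fibroblasts or satellite glia in the levels of the SOX genes, or of the listed genes given below, was not tested. In bulk RNA, fewer cells of a type and less RNA per cell cannot be told apart.

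All 10 SOX genes were above 1 TPM in each library and by limma, where 78.4% of the 13345 genes tested were above, so this count is near the background. Against all 17337 listed genes, 60.6% reached 1 TPM in each library. The levels spanned from Sox10 at 612 ± 26.0 TPM down to Sox9 at 2.52 ± 0.0674 TPM. Sox10, Sox2 and Sox4 reached 100 TPM in every library, a level that 11.7% of listed genes reached. Of the 10513 genes at 1 TPM or more in each library, 19.3% reached it. By mean TPM over all listed genes Sox4 ranked 797, Sox13 2659, Sox12 2817 and Sox5 6211. Sox8 ranked 8454, Sox11 9503, Sox6 9919 and Sox9 9991, and 9.62%, 5.75% and 5.08% of the genes that reached 1 TPM in every library had a lower mean than Sox11, Sox6 and Sox9. The median over the 10 genes was 50.1 TPM, beside 21.7 TPM over all genes with a count and 34.3 TPM over genes at 1 TPM or more in each library. The 10 genes together made up 0.131% ± 0.00506 of all TPM.

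**Figure D1:**
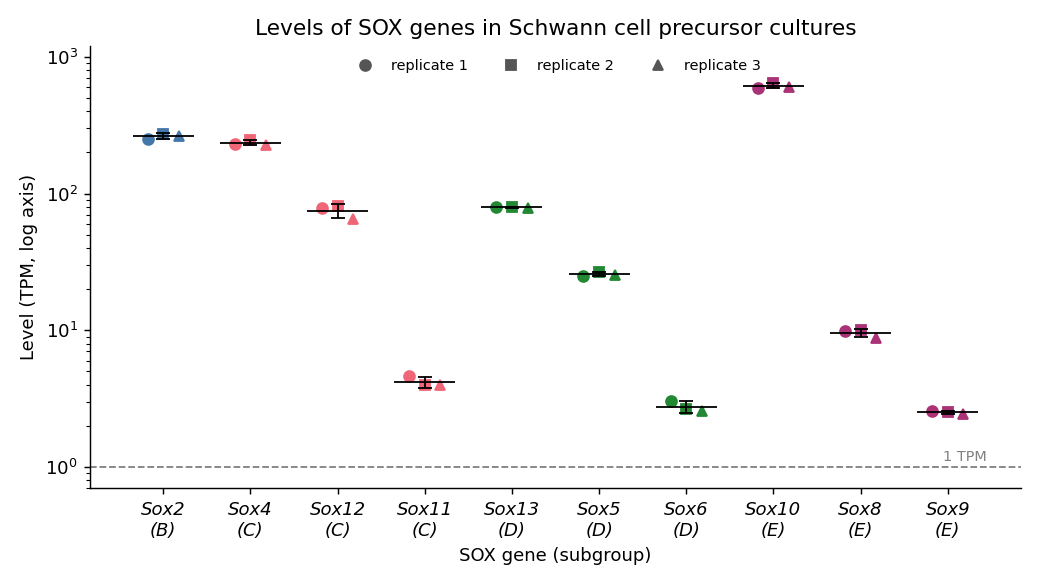
Level in TPM on a log axis of the 10 SOX genes, ordered by subgroup and then by level. Points are the 3 libraries, horizontal lines the means and error bars the SD; in subgroups C, D and E, 1 member stands above the others, and all points lie above the dashed line at 1 TPM.

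The SOXE genes were the most unequal subgroup. Sox10, the factor that peripheral glia need, was at 590, 641 and 605 TPM in replicates 1, 2 and 3, from 13201, 13343 and 12624 counts. These values place it at rank 239 of all listed genes, with replicate 2 highest and replicate 1 lowest. In rn6 coordinates it occupies 120393254 to 120403523 on chromosome 7 in 5 listed exons. Sox8, a close relative found in many of the same glia, was at 9.80, 10.1 and 8.82 TPM, with 197 to 235 counts per library. Sox9, which acts earlier in neural crest and drives cartilage formation, was at 2.59, 2.53 and 2.45 TPM from 68 to 77 counts. Its level was above 1 TPM by limma (adjusted p = 1.61e-05), and none of its libraries overlapped those of Sox8. The share of all gene pairs without such overlap was not computed, for this or any pair given below. Sox10 supplied 98.1% ± 0.115 of the SOXE transcripts by TPM, Sox8 1.53% ± 0.0991 and Sox9 0.405% ± 0.0222. On the rn6 assembly chromosome 10 carries both Sox8 (minus strand, 14932348 to 14937336) and Sox9 (plus strand, 101288528 to 101294028), each with 3 listed exons.

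Sox2 is the SOXB gene of the set. In Schwann cells SOX2 is known for holding cells in an immature state and for opposing the myelination program. Its level was 250, 274 and 265 TPM in replicates 1, 2 and 3, a mean of 263 ± 11.8 TPM at rank 680 of all listed genes. Every library of Sox2 was below every library of Sox10, which was 2.36, 2.34 and 2.29 times as high within replicates 1, 2 and 3. Sox2 lies on the plus strand of chromosome 2 from 121165137 to 121167545 in rn6, where the table lists it in 2 pieces with 2323 bases in all.

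In SOXC the order by TPM was Sox4, Sox12, Sox11. Sox4, expressed in many progenitor cells, was at 230, 247 and 228 TPM, and Sox12, a weaker activator than its relatives, at 78.7, 80.4 and 64.7 TPM. Sox11, best known from young neurons, was at 4.63, 3.96 and 3.96 TPM from 55 to 69 counts. No library of one of these genes overlapped a library of another. Sox4 made up 74.9% ± 1.74 of the SOXC transcripts by TPM, Sox12 23.7% ± 1.71 and Sox11 1.34% ± 0.14. Each is listed with 1 exon: Sox4 on chromosome 17 from 37615022 to 37619727, Sox12 on chromosome 3 from 147864374 to 147865393 and Sox11 on chromosome 6 from 46629971 to 46631988. The listed length of Sox12, 1020 bases, is a multiple of 3, as a model of the coding part alone would be, whereas that of Sox4 is 4706 bases. This alone does not show a coding model, since the 3282 bases of Sox7 are a multiple of 3 too. The share of Sox12 rests on that length. In counts scaled by the library total alone, without length, Sox4 made up 92.9% ± 0.598 of SOXC, Sox12 6.39% ± 0.562 and Sox11 0.711% ± 0.0794. Neither scale settles the share, because without division by length a gene with a longer listed model collects more counts. If the model of Sox12 leaves out part of its transcript, its counts are too low as well.

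In SOXD the order was Sox13, Sox5, Sox6. Sox13 was at 79.5, 79.2 and 78.7 TPM, Sox5 at 25.0, 26.6 and 25.4 TPM, and Sox6 at 3.06, 2.64 and 2.58 TPM from 48 to 61 counts. No library of one overlapped a library of another. Sox5 and Sox6 act as partners of SOX9 in cartilage and as modulators of SOXE factors in central glia, while Sox13 is known mainly from lymphocytes. By TPM, Sox13 made up 73.6% ± 0.471 of the SOXD transcripts, Sox5 23.9% ± 0.648 and Sox6 2.57% ± 0.241. In rn6, Sox13 spans 50434702 to 50479118 on chromosome 13 in 14 listed exons, Sox5 178066781 to 178441547 on chromosome 4 in 15, and Sox6 185673177 to 186182830 on chromosome 1 in 16.

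Of the 10 genes, 5 had an entry in a RefSeq promoter table of the GRCr8 assembly, namely Sox2, Sox13, Sox12, Sox11 and Sox6. The 250 bases before the annotated start are shown for Sox2, the highest of these genes, and for Sox13 and Sox6, a high and a low member of 1 subgroup. Capitals mark CG dinucleotides, which cluster at many active promoters, and each sequence reads 5′ to 3′ on the strand of the gene. The windows are chr2:119464881-119465130 on the plus strand for Sox2, chr13:47427573-47427822 on the minus strand for Sox13 and chr1:179665372-179665621 on the minus strand for Sox6. In rn6 coordinates Sox13 and Sox6 are listed on the plus strand instead, a difference not resolved here. Only the first entry of each gene was used.
Sox2: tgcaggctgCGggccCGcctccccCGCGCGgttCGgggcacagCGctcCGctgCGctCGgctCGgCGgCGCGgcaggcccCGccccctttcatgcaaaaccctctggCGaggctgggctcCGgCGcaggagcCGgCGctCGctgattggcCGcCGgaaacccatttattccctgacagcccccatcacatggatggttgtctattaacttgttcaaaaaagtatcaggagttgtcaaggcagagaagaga
Sox13: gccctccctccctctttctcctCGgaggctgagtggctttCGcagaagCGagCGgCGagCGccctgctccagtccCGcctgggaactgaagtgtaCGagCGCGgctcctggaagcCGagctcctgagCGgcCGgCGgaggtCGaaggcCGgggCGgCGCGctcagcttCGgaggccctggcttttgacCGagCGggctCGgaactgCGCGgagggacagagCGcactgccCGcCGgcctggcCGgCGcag
Sox6: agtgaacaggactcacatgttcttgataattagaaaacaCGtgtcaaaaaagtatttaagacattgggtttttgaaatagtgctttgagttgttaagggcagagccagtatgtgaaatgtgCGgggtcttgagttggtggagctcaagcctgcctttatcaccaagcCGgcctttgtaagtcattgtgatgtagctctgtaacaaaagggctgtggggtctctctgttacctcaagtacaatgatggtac

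The window of Sox2 held 23 CG dinucleotides, that of Sox13 30 and that of Sox6 3, where the median over 33469 windows of the same length was 5. Sox12 had 46 in its window and Sox11 14. Thus the 3 genes at 74.6 TPM or more had at least 23 and the genes at 4.18 TPM or less at most 14, which describes 5 genes only. The GC content was 64.4% for Sox2, 72% for Sox13, 84.4% for Sox12, 56.8% for Sox11 and 42.8% for Sox6, beside a median of 51.2%. The SOX binding words AACAAT and AACAAAG were searched on both strands. Neither occurred in any of the 5 windows, whereas 14.8% of all windows held one of them, so these letters are not in these windows and nothing follows for binding elsewhere.

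The balance between subgroups was nearly the same in each library. SOXE supplied 47.3%, 47.8% and 48.0% of the summed TPM of the 10 genes in replicates 1, 2 and 3, a mean of 47.7% ± 0.37. SOXC supplied 24.0% ± 0.809, SOXB 20.1% ± 0.49 and SOXD 8.23% ± 0.264. Sox10 alone made up 46.8% ± 0.417. The order of SOXC over SOXB held in each library, at 24.6% against 19.7%, 24.2% against 20.03% and 23.1% against 20.6%. This sets a sum over 3 genes against Sox2 alone. By mean TPM Sox2, at 263, was above Sox4, the highest SOXC gene, at 235. Without division by gene length SOXC was at 29.3% and SOXB at 15.1%.

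**Figure D2:**
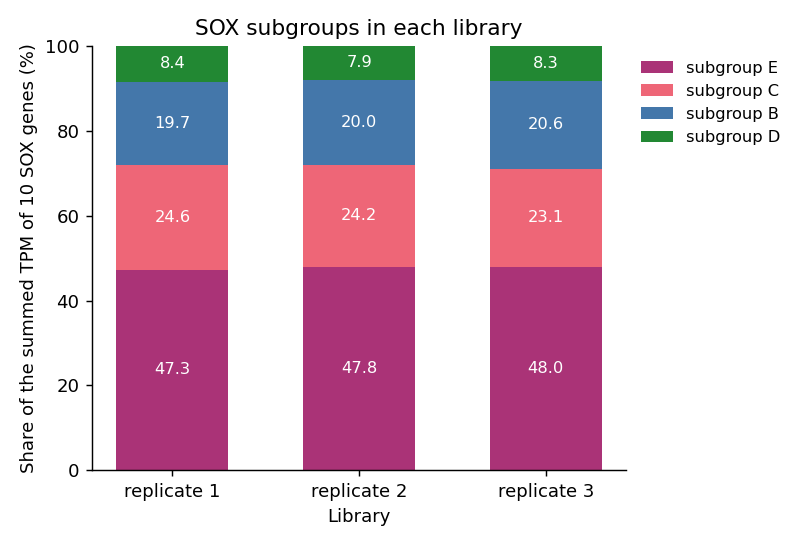
Share in percent of each SOX subgroup in the summed TPM of the 10 genes, 1 bar per library. SOXE takes 47.3% to 48.0% of each bar, SOXC 23.1% to 24.6%, SOXB 19.7% to 20.6% and SOXD 7.94% to 8.45%.

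To find which neighbours in the order of levels differ, log2 ratios of TPM within libraries were taken with 0.1 TPM added, for 9 neighbouring pairs and 9 pairs of 1 subgroup. Each gene was used in turn as the reference of a limma fit across all genes, with Benjamini-Hochberg adjustment over 13344 genes. By these fits 16 of the 18 pairs differed, where 97.2% of all genes differed from a given SOX gene, so passing is common. The reference's own deviations enter every difference of its fit, so p-values far below the threshold carry no further meaning. An exact sign-flip test on 3 libraries cannot go below p = 0.25.

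All 9 pairs within a subgroup differed, by folds from 3.07 for Sox13 over Sox5 to 233 for Sox10 over Sox9. Sox10 exceeded Sox8 by a log2 ratio of 5.99 ± 0.09 (SD), Sox4 exceeded Sox11 by 5.78 ± 0.16 and Sox13 exceeded Sox6 by 4.795 ± 0.122, in 3 of 3 libraries each. Sox8 exceeded Sox9 by 1.88 ± 0.07, Sox4 exceeded Sox12 by 1.66 ± 0.14 (3.86 without division by length) and Sox5 exceeded Sox6 by 3.17 ± 0.16, again in 3 of 3 libraries.

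Among neighbours, 7 of 9 differed and their libraries did not overlap. The order of the pairs came from the mean TPM of these same libraries, and the share of all gene pairs without overlap was not computed. The smallest of the 7 steps was Sox2 over Sox4, a log2 ratio of 0.16 ± 0.05 (SD) with a limma adjusted p of 0.00118. This step was called no longer without replicate 3, where the adjusted p was 0.0751. Sox11 over Sox6 was 0.58 ± 0.01 (SD), with a limma adjusted p of 2.33e-05 and a limma standard error of 0.137. Counting error alone gives a spread of 12.9% of the mean for Sox11 and 13.8% for Sox6. The small SD of this ratio is therefore no measure of its precision. With a variance for each gene from its own level, the moderated test gave an adjusted p of 0.00232. Without division by length the log2 ratio of Sox11 to Sox6 was 0.18 and no longer called (limma adjusted p = 0.2085). Sox13 and Sox12 overlapped, with a log2 ratio of 0.09 ± 0.17 (SD) and a limma adjusted p of 0.485, and Sox12 was the higher of the pair in replicate 2. Sox6 and Sox9 also overlapped, with a log2 ratio of 0.12 ± 0.10 (SD) and a limma adjusted p of 0.336. Over the pooled counts, 158 for Sox6 and 215 for Sox9, the 95% exact Poisson intervals were 2.35 to 3.24 TPM and 2.20 to 2.88 TPM, for counting error only. In neither of those pairs is the order settled by 3 libraries.

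The order between genes rests on the listed lengths. Neither scale is free of them, since without division by length longer listed genes collect more counts. In CPM (counts scaled by the library total alone, leaving length out), Sox4 was at 536 ± 24.8 and Sox2 at 296 ± 14.5, so the log2 ratio of Sox2 to Sox4 turned to -0.85. Sox9 moved from the lowest of the 10 to above Sox11 and Sox6, at 4.93 ± 0.116 CPM beside 4.09 ± 0.358 and 3.61 ± 0.324. The log2 ratio of Sox6 to Sox9 was -0.44 on that scale. Sox12 came down to the level of Sox5, at 36.9 ± 4.23 beside 35.1 ± 1.25, and that ratio was no longer called (limma adjusted p = 0.24). Sox13 then stood above Sox12 by a log2 ratio of 1.89. Sox10 stayed first, at 899 ± 41.3 CPM.

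**Figure D3:**
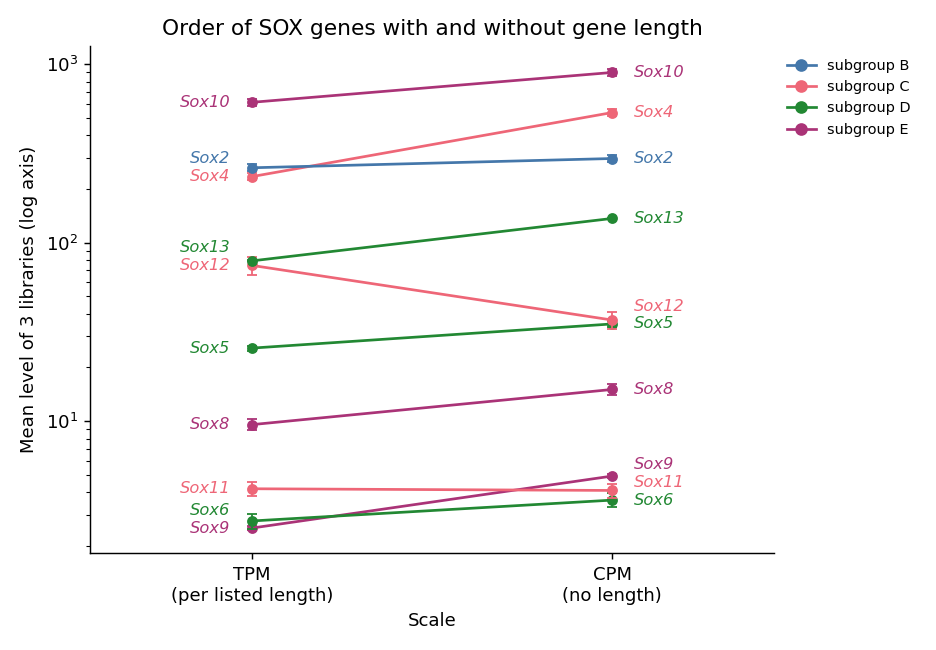
Mean level of each SOX gene over 3 libraries on a log axis, per listed length in TPM at the left and as CPM at the right, with the SD as error bars. Sox4 and Sox2 change places, Sox12 comes down to Sox5, Sox9 rises above Sox11 and Sox6, and Sox10 is highest on both scales.

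Levels were close between libraries. The coefficient of variation (CV, the SD as a percentage of the mean) ran from 0.488% for Sox13 to 11.6% for Sox12, with a median of 4.44% beside 4.47% over 10436 genes with a mean count of 20 or more. For the 3 genes at 100 TPM or more the CV exceeded that of counting error, being 4.24% against 0.875% for Sox10, 4.403% against 1.13% for Sox4 and 4.48% against 1.52% for Sox2. The CV was thus 4.85, 3.89 and 2.94 times that of counting error. The median of this ratio was 1.08 over the 10436 genes, which mix count levels. Each of the 3 SOX genes was highest in replicate 2. Sox12 had the widest spread of the set, since replicate 3 was at 64.7 TPM and the other libraries at 78.7 and 80.4, with 4.32% given by counting alone. For Sox6, Sox9 and Sox11 counting error alone gives 11.8% to 13.8%, above the 2.67% to 9.41% observed, so at this depth their libraries cannot be told apart. The CV was also below that of counting error for Sox13, at 0.488% against 2.24%, and for Sox5, at 3.22% against 4.43%. Replicate 3 was the lowest library for 7 of the 10 genes and the highest for none, but the like shares over all genes were not computed. Of these 7, Sox6, Sox9, Sox11 and Sox13 had a CV below that of counting error.

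**Figure D4:**
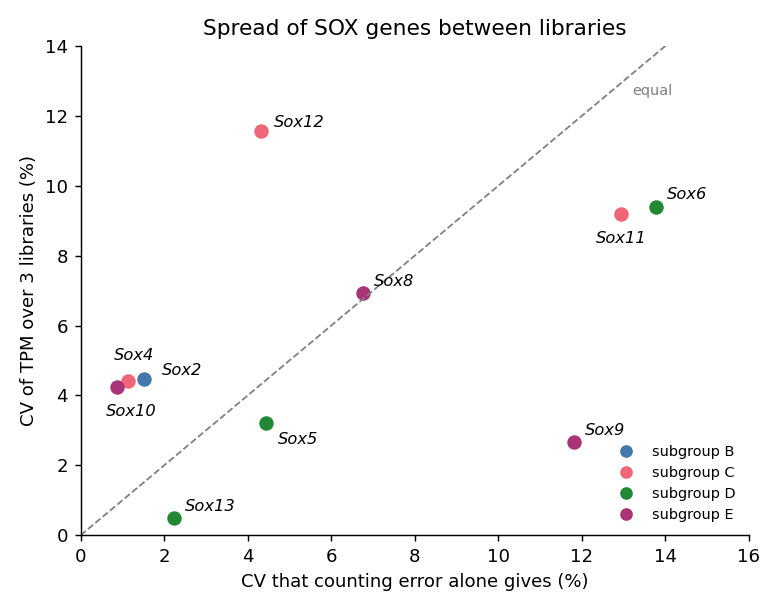
CV of TPM over 3 libraries against the CV that counting error alone gives, both in percent, for each SOX gene. Sox10, Sox4, Sox2 and Sox12 lie well above the dashed line of equality, Sox8 lies close to it, and Sox5, Sox6, Sox9, Sox11 and Sox13 lie below it.

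The other SOX genes of the table were near silent. Of 10 further family members 6 were matched, while Sox1, Sox3, Sox21 and Sox30 were not. Of the 6, 4 were below 1 TPM by limma (a call that 17.8% of genes tested received) and Sry and Sox14 had no count. A count of 3 in Sox14 would correspond to 0.21 to 0.225 TPM in a library, for counting error only. In the shorter genes it would be more, at 0.796 to 0.855 TPM for Sry and 0.531 to 0.57 TPM for Sox15. Low levels of these genes are less well resolved. Sox7, Sox17 and Sox18, which mark endothelium, had 25, 1 and 3 counts over the 3 libraries. Sox7 was at 0.412, 0.222 and 0.443 TPM. Of 10 endothelial markers 5 were above 1 TPM (background 78.4%), led by Cdh5 at 16.6 ± 1.03 and Emcn at 13.7 ± 0.836, with a summed level of 40.1 to 43.0 TPM, while Pecam1 was at 0.0694 ± 0.0694 and Cldn5 had no count. Sox15, with 6 counts, shares exon bases with Mpdu1 on the opposite strand, so its level is uncertain. None of the 10 glial lineage genes shares exon bases with another listed gene.

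Lists of genes tied to SOX factors are given by their counts above 1 TPM, a call that 78.4% of the 13345 genes tested received. Medians stand beside 21.7 TPM over all genes with a count. A count near that share is not a result about the list. Of 14 genes described as direct targets of SOX10, 13 were above 1 TPM and 1 below, with a median of 39.4 TPM. The calcium-binding protein gene S100b was at 2061 ± 14.9 TPM, the endothelin receptor Ednrb at 1414 ± 16.7, the myelin gene Pmp22 at 628 ± 18.9 and the neuregulin receptor Erbb3 at 581 ± 14.3. Among the others, the transcription factor gene Egr2 was at 52.3 ± 2.45, Prx at 26.6 ± 1.22, the connexin gene Gjb1 at 12.3 ± 0.849 and the adhesion gene Mag at 0.21 ± 0.0883 TPM. Ret, the receptor of enteric precursors, was at 4.82 ± 0.218 and Mitf, the melanocyte regulator, at 3.35 ± 0.595 TPM. The melanocyte genes Tyr, Mlana and Slc45a2 had no count, and of 6 melanocyte markers 3 were above 1 TPM (background 78.4%), with a summed level of 31.3 to 36.0 TPM that came mostly from Kit at 27.8 ± 2.39. Egr2, Prx, Gjb1 and Ret fall outside the naming rule and were picked once their values were known.

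Of 21 partner factors and cofactors of SOX proteins 20 were above 1 TPM, beside 78.4% of genes tested, and Olig1, at 0.834 ± 0.204 TPM, passed in neither direction. The median was 62.4 TPM. Zeb2, a repressor that glia need to mature, was at 283 ± 8.58 TPM, the histone deacetylase gene Hdac2 at 236 ± 4.26, the corepressor gene Ctbp1 at 235 ± 3.05 and Hdac1 at 199 ± 3.01. Pou3f1, the POU factor that acts with SOX10 on Egr2, was at 147 ± 11.7 TPM, and its relative Pou3f2 at 19.4 ± 0.347. The crest factor Pax3, another known SOX10 partner, was at 12.9 ± 0.367 TPM. Of 8 oligodendrocyte lineage markers, which belong to the central glia that also use SOX10, 3 were above 1 TPM (background 78.4%). These were Myrf at 12.2 ± 0.402, Cspg4 at 7.49 ± 0.309 and Gpr17 at 2.28 ± 0.511 TPM. The summed level of the list was 22.4 to 24.1 TPM. Mog was at 0.303 ± 0.146 and Olig2 at 0.0901 ± 0.0644 TPM, while Nkx2-2 and Opalin had no count. Pou3f1, Pou3f2 and Pax3 fall outside the naming rule and were picked once their values were known.

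Of 5 measured genes linked to SOX2 in neural or Schwann cells 5 were above 1 TPM, beside a background of 78.4%. They were fibronectin Fn1 at 932 ± 42.6 TPM, N-cadherin Cdh2 at 195 ± 5.80, the receptor gene Notch1 at 125 ± 2.93, the intermediate filament gene Nes at 103 ± 0.626 and Pou3f2. Of 5 genes described as SOXC targets 3 were above 1 TPM, beside the same background. These were the tubulin gene Tubb3 at 185 ± 5.76, the TEAD factor gene Tead2 at 96.1 ± 0.918 and the histone methyltransferase gene Ezh2 at 48.8 ± 3.55 TPM, while the neuronal gene Dcx was at 0.45 ± 0.0189 and Hes5 had no count. Tubb3 and Dcx are also markers of neurons, and 13 of 14 measured sensory neuron markers were above 1 TPM (background 78.4%), with a summed level of 709 to 720 TPM led by Prph at 176 ± 5.71. The part of neurons in the levels of Sox4 and Sox11 was not tested, nor was that of fibroblasts in the level of Fn1.

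Of 11 measured cartilage genes, which SOX9 drives together with SOX5 and SOX6, 5 were above 1 TPM (background 78.4%) and 4 below (background 17.8%), and Matn1 and Lect1 had no count. The collagen gene Col11a1 was at 98.8 ± 4.82 TPM, Col9a2 at 12.5 ± 0.942, the matrix gene Comp at 5.84 ± 0.123 and Col11a2 at 3.49 ± 0.326. The defining cartilage collagen Col2a1 was at 3.08 ± 0.371 TPM and the aggrecan gene Acan at 0.179 ± 0.117. The median of the list was 0.327 TPM. Col2a1 falls outside the naming rule and was picked once its value was known.

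**Figure D5:**
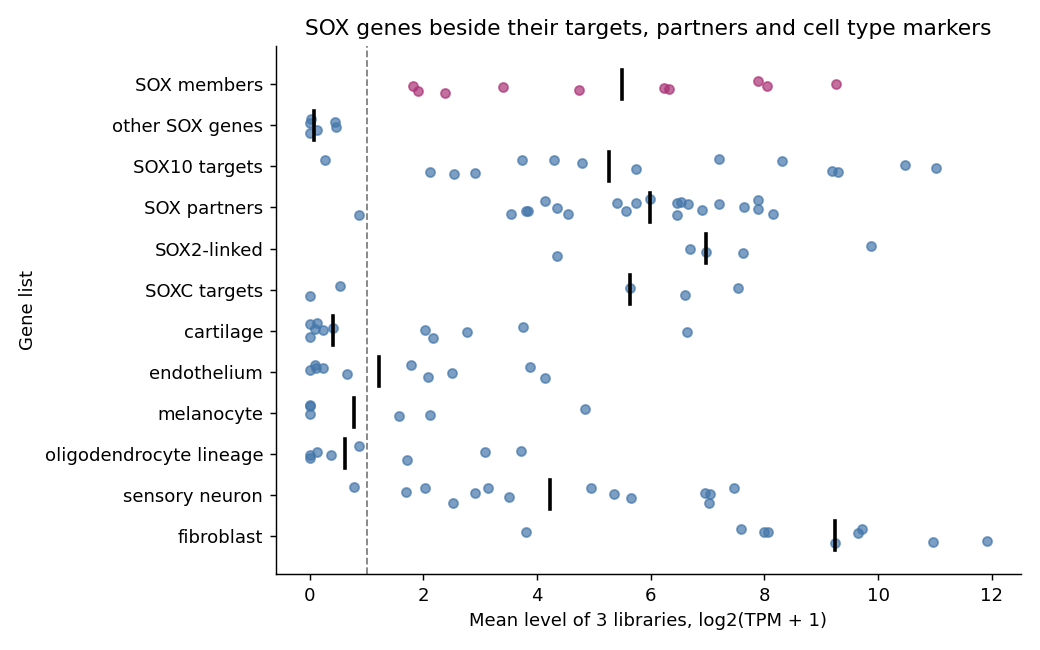
Mean level over 3 libraries as log2(TPM + 1) of each gene in 12 lists, 1 point per gene, with a black bar at the median of each list and a dashed line at 1 TPM. The Schwann cell precursor and satellite glia lists are not drawn. The 10 SOX genes, their partners except Olig1 and most targets lie above the line, the other SOX genes below it, and the cartilage, melanocyte and oligodendrocyte lineage lists have their medians below it.

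For the highest gene of each subgroup, the genes nearest in level were sought among 115 genes of the lists by the mean absolute difference of log2(TPM + 1) over 3 libraries. Nearest to Sox10 were the proteoglycan gene Lum of the fibroblast list (difference 0.07) and the SOX10 target Erbb3 (0.08), at 602 ± 16.2 and 581 ± 14.3 TPM. Nearest to Sox2 were Pdgfra (0.04) and Fbln1 (0.05), both on the fibroblast list, and nearest to Sox4 were Ctbp1 (0.04) and Hdac2 (0.05). Sox13 had no gene as near, with Smarcd1 and Egr1 each at 0.14. This measure is of level alone, since 3 libraries of 1 group hold no pattern to compare.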

How the data were processed

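RNA was harvested with an RNeasy kit and made into libraries with a stranded mRNA kit, per the labels' protocols. The submitters' processing notes name STAR 2.5.2b, Subread and rn6. Neither the annotation nor the strand setting was given in the sources used here. The authors deposited raw counts per gene, gene lengths and TPM per library. TPM recomputed here from the deposited counts differed by at most 0.0005 TPM, and 9 other per-library columns and 2 rows without a gene name were not used. Levels and ratios were tested with limma 3.58.1 (R 4.3.3) as described beside the results. Both limma steps were tested on simulated data. Exact 0 values are counts of 0.

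Of 141 list symbols, 124 matched by symbol and 1 by gene identifier, and 16 were not used here. Named genes are the 10 SOX genes, other SOX genes, and of each list the 4 highest genes and those under 1 TPM in each library, with the nearest genes by level. Some genes that this rule names are given only within counts, and some are not reported here. The genes and lists were chosen with earlier results of these data known. Alternatives were other pseudocounts, filters, limma without trend, edgeR 4.0.16 (a quasi-likelihood test on the deposited counts with an offset for length), scaling by TMM or DESeq2 1.42.0 size factors, CPM, leaving out each library, and, added after seeing the data, a variance for each gene from its own level. An alternative with coding lengths was not run. Intervals and floors cover counting error only.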

Additional observations from a re-analysis of the deposited data

How the results depend on the processing

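All 10 SOX genes stayed above 1 TPM under each of 11 alternatives, with limma or edgeR adjusted p-values of at most 0.00233. The number of genes below 1 TPM was 2374, but 6235 when every listed gene was tested and 1372 when a mean of 0.1 TPM was required, as more or fewer near-silent genes enter the test. The subgroup shares moved by more than their SD without division by length, to 15.1% for SOXB, 29.3% for SOXC, 8.92% for SOXD and 46.7% for SOXE. Of the 18 ratios, 15 to 16 were called when a library was left out and 16 with a variance for each gene from its own level. Without division by length the log2 ratio of Sox2 to Sox4 reversed to -0.85 and that of Sox6 to Sox9 to -0.44. Leaving out a library gave log2 ratios of Sox13 to Sox12 from -0.00364 to 0.15, the negative value without replicate 3, and of Sox2 to Sox4 from 0.14 to 0.18. Depth limits Sox6, Sox9 and Sox11, whose libraries hold 48 to 77 counts each. No paired analysis was possible because the libraries form 1 group.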
